A study of Mus musculus with 2 samples.

Results

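The genes described here belong to the matrix metalloproteinase system and were followed across the cell classes of the mouse uterus. They are Mmp2, Mmp3, Mmp7, Mmp9, Mmp11, Mmp14 and Mmp23 and the inhibitor genes Timp1, Timp2 and Timp3. They were found by their symbols among the genes listed for both libraries, so the set is 10 of 32285 genes, with 7 proteinases and 3 inhibitors. Whole uteri from females, 6 months old, were digested to single cells, and the 3′ ends of their transcripts were sequenced in droplets. The control mice carried the Prickle1 f/f alleles alone, and the conditional knockout (cKO) mice carried Prickle1 f/f with Ltf-cre, a Cre recombinase under control of Ltf, the lactoferrin gene of the uterine epithelium. Each group was 1 library pooled from 3 mice. Both groups therefore shared the floxed alleles and differed by the Cre, and the genotype entry of the labels calls both wild-type C57BL/6J, which differs from the titles that gave the groups used here. With 1 library per group there is no replicate check, and genotype, animals, dissociation and library cannot be told apart.

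Matrix metalloproteinases are zinc-dependent enzymes that cut collagens, proteoglycans and other proteins of the extracellular matrix. Most are secreted as inactive precursors and some are anchored in the cell membrane, where they also cut receptors and adhesion proteins. The tissue inhibitors of metalloproteinases (TIMPs) block the active site by binding it tightly. In the uterus both groups of genes are known for their part in the remodelling of the endometrium through the reproductive cycle and at implantation, with most of the proteinases made in the stroma and matrilysin in the epithelium.

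Promoter sequences are shown for Mmp3 and Mmp7 because these were the 2 of 8 members found in the RefSeq promoter table of build GRCm38.p6 that held a match to the AP-1 site. AP-1, made of FOS and JUN proteins, is a textbook regulator of several metalloproteinase genes. The letters searched were TGACTCA and TGAGTCA, which are the reverse complement of each other and so cover both strands, in the 250 bases before each start site. A match was held by 4.46% of the 32851 promoters in that table, and 5.16% of 27025 genes had one in at least 1 of their promoters. A match is a description of letters and not of binding. Both genes lie on the plus strand of chromosome 9. The capitals mark the 7 matching bases, which begin 46 bases before the start of Mmp3 and 63 bases before the first of the start sites of Mmp7.

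Mmp3 promoter, chr9:7445736-7445821, plus strand: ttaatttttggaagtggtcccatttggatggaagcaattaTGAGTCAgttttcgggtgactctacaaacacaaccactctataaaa

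Mmp7 promoter, chr9:7691987-7692073, plus strand: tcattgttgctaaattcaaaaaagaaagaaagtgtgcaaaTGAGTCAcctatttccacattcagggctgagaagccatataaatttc

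Cells were barcodes with at least 500 genes and at most 20% mitochondrial UMIs (unique molecular identifiers, each standing for 1 captured transcript). There were 3653 control cells with a median of 4650 UMIs, out of a library of 45035801 UMIs, and 4950 cKO cells with a median of 5944 UMIs, out of 57145553. Both libraries shared 5 cell barcodes. A cell was placed in a class by the gate gene of which it held the most UMIs: Epcam for epithelial, Pdgfra for stromal, Actg2 for smooth muscle, C1qa for macrophage, Flt3 for dendritic and Msln for mesothelial cells. A UMI of at least 2 further markers of the class was found in 90.8% to 98.7% of the cells of every class and library except cKO Epcam cells, where 64 of 120 (53.3%) had them. The targeted gene Prickle1 could not check the labels: its UMIs came to 0.760 CPM (UMIs per 1000000 UMIs of the class) in control and 1.63 CPM in cKO epithelial cells, both below the 1.55 and 5.69 CPM of cell-free barcodes, and an internal exon lost from the gene would not be seen in 3′ counts.

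In the stroma 3 proteinases were at least 2-fold lower in cKO, beside 5.16% of 12131 genes, and the inhibitors were split. Mmp14 and Mmp23 were lower by less than 2-fold, and the sparse Mmp9 was higher. Mmp3 (stromelysin-1, which cuts proteoglycans and laminin and activates other precursors), Mmp2 (gelatinase A, which cuts denatured and basement membrane collagen) and Mmp11 (stromelysin-3, a stromal enzyme activated inside the cell by furin) were all at least 2-fold lower. Timp3 and Timp1 were higher and Timp2 lower, each by less than 2-fold. The stromal gate held 681 control cells with a median of 12572 UMIs and 1599 cKO cells with a median of 16227.

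Mmp3 stood at 885 CPM (95% Poisson interval 866 to 904) in control stromal cells and at 207 CPM (202 to 212) in cKO stromal cells. The intervals did not overlap, and cKO was 4.28-fold lower (conditional binomial interval 4.14 to 4.42). All intervals here cover counting error only. Averaging cells in place of summing them brought the log2 ratio from -2.10 to -1.40. Mmp2 stood at 504 CPM in control against 251 in cKO, 2.01-fold lower (1.93 to 2.08). That ratio sits at the 2-fold line, and it was past the line under 7 of 12 alternative ways of processing. Mmp11 stood at 49.4 CPM in control against 19.3 in cKO, 2.57-fold lower (2.27 to 2.91).

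Mmp14 encodes the membrane-anchored enzyme that activates the precursor of MMP2, and Mmp23 a membrane enzyme without the usual haemopexin domain. Their stromal ratios lay nearer to 1 than those of Mmp2, Mmp3 and Mmp11. Mmp14 was 410 CPM in control against 317 in cKO, a ratio of cKO to control of 0.773 (0.745 to 0.803). Mmp23 was 54.2 and 36.3 CPM, a ratio of 0.669 (0.601 to 0.745). Mmp9, gelatinase B, a gene best known from neutrophils, was sparse, with 6 UMIs in control and 85 in cKO, or 0.635 and 2.91 CPM. Of the cKO UMIs, which came from 14 cells, 38.8% came from 1 cell, and the cell-free level was 1.55 and 2.19 CPM, so the ratio of 4.59 (2.02 to 12.8) rests on few cells.

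Timp2, whose protein also links MMP14 to the MMP2 precursor, was the most abundant inhibitor transcript of control stroma at 751 CPM, against 440 CPM in cKO, a ratio of 0.585 (0.569 to 0.603). Timp3, which encodes the inhibitor that binds to the matrix, was 176 CPM in control against 325 in cKO, a ratio of 1.84 (1.75 to 1.94). Timp1, which encodes a secreted inhibitor with weak action on membrane-type enzymes, was 127 and 194 CPM, a ratio of 1.53 (1.44 to 1.63). In cell-free barcodes Timp3 and Timp1 differed in the same direction as in stroma, and Timp2 (126 and 175 CPM) and Mmp2 in the opposite one. Timp3 was 42.3 CPM in control against 147 in cKO there, and Timp1 24.0 and 80.1 CPM. The part of cell-free RNA in the stromal values was not tested beyond an alternative that subtracts an assumed 5%, under which the stromal Timp1 and Timp3 ratios stayed above 1. UMIs of all 7 proteinases made up 64.4% of the UMIs of the 10 genes in control stroma and 46.5% in cKO stroma. Their summed level was 1903 CPM in control against 834 in cKO, while the 3 inhibitors together were 1054 and 958 CPM. Most of the difference in the proteinase sum lay in Mmp3 (885 and 207 CPM) and Mmp2 (504 and 251 CPM). The sum is of these 7 genes only: Mmp19, which is not among them, was higher in cKO stroma, as given under the other observations.

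A member was counted in a class when both libraries together held at least 50 of its UMIs there. In stromal cells 9 of 10 members were counted, of which 1 (Mmp9) was at least 2-fold higher and 3 (Mmp2, Mmp3 and Mmp11) at least 2-fold lower. Mmp9 reached 50 UMIs through the cKO library, where it was high, so its place among the higher genes supports nothing. Of 12131 genes counted in the same way, 4.76% were that much higher and 5.16% that much lower. The median log2 ratio was -0.58 over the 9 members and -0.01 over all counted genes.

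**Figure D1:**
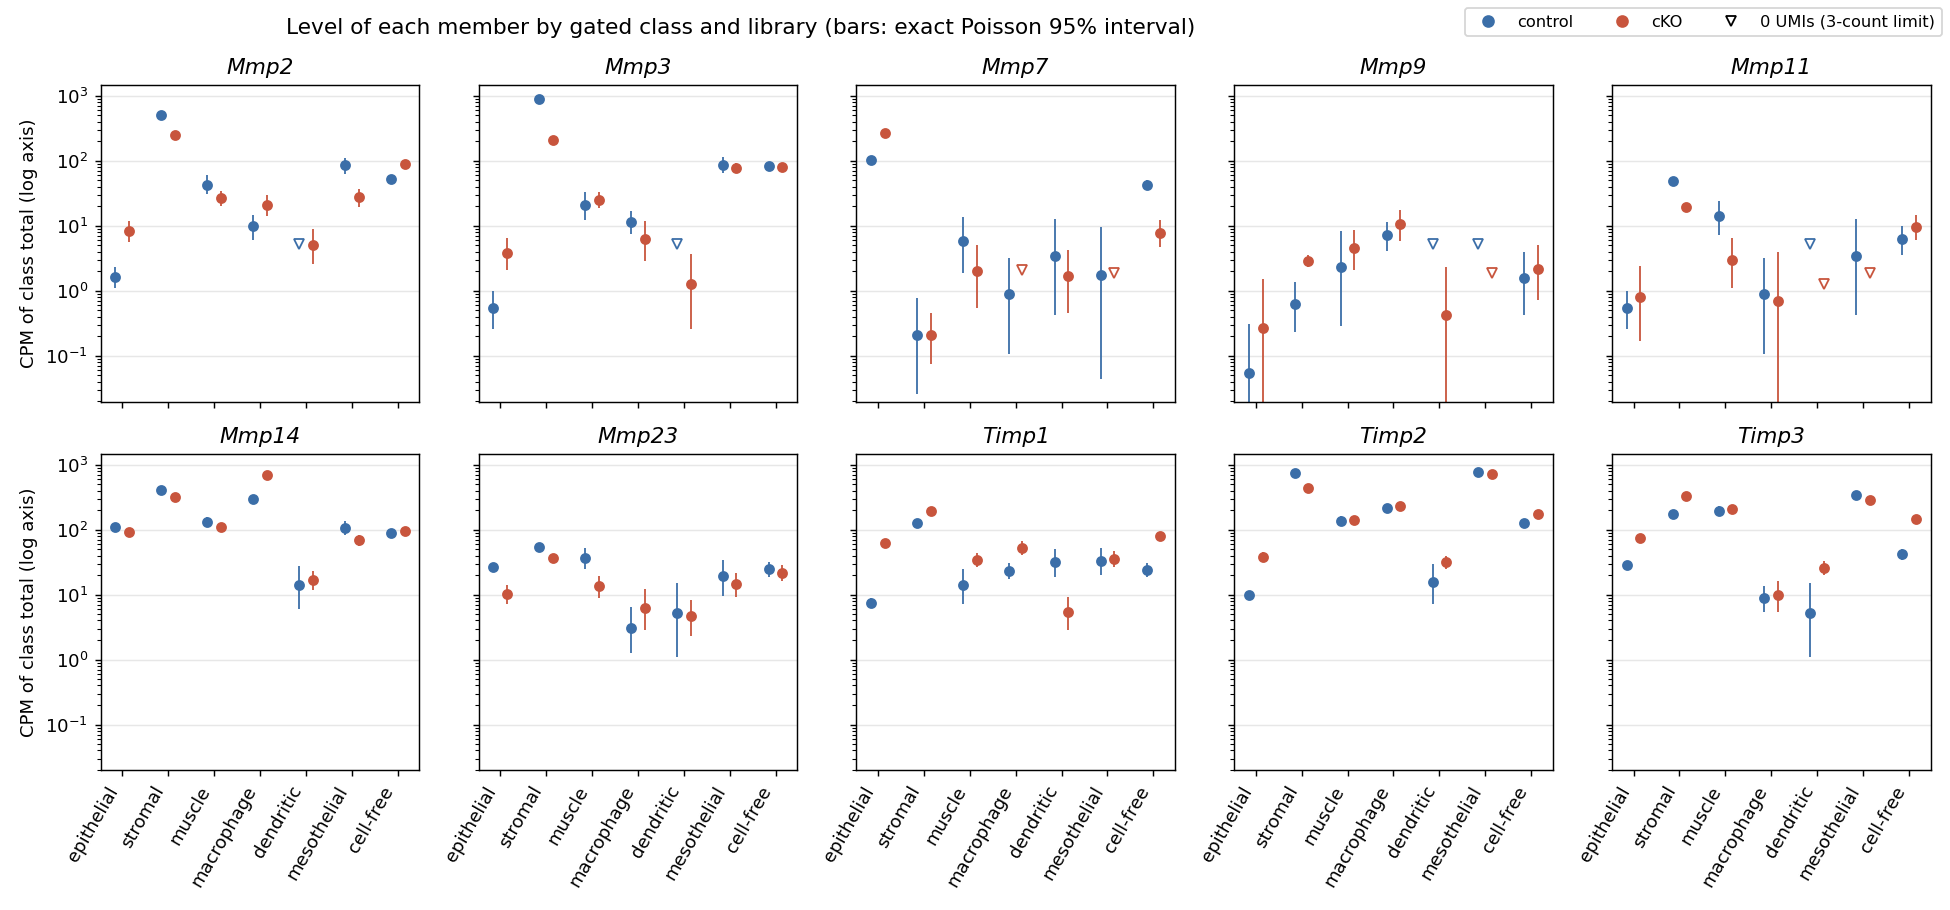
Level of each gene in CPM of the class total (log axis) for the 6 gated classes and for cell-free barcodes, in the control library (blue) and the cKO library (red); bars are exact Poisson 95% intervals, some of which run below the axis, and open triangles mark a count of 0 at the level that 3 counts would give. Mmp7 is high in epithelial cells alone among the classes, Mmp2, Mmp3 and Mmp11 are highest in stromal cells, and Mmp14 in cKO is highest in macrophages.

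The lower stromal Mmp3 went with fewer cells carrying it. When every stromal cell was thinned to 5000 UMIs, leaving 525 control and 1413 cKO cells and dropping 156 and 186 shallower ones, an Mmp3 UMI was found in 51.8% of control and 20.2% of cKO cells, and 5 or more in 25.7% and 6.94%. Mmp3 was also unevenly spread: the tenth of stromal cells richest in it held 67.3% of its UMIs in control and 86.8% in cKO. The richest single thinned cell was in cKO, with 111 Mmp3 UMIs against a maximum of 62 in control. In T or NK cells, which should lack the gene and served as background, 0.357% of control and 0.649% of cKO cells held an Mmp3 UMI at their full depth (medians of 4691 and 4861 UMIs), against 52.9% and 27.2% of stromal cells.

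Mmp2, by comparison, was spread over most stromal cells in both libraries. After thinning, 75.8% of control and 61.3% of cKO cells held at least 1 Mmp2 UMI, and 5 or more were found in 21.1% and 3.82%. Timp2 showed the same shape, with 88.4% and 75.3% of cells holding a UMI. Timp3 went the other way, from 35.6% of control to 48.6% of cKO cells, as did Timp1, from 16.6% to 30.4%. Control cells with 5 or more Mmp3 UMIs held on average 3.63 Mmp2 UMIs, against 2.49 in cells with fewer, and 0.296 against 0.592 Timp1 UMIs. In cKO the corresponding means were 1.68 and 1.27 for Mmp2 and 1.55 and 0.932 for Timp1. By these means the 135 Mmp3-rich control cells were Timp1-poorer and the 98 Mmp3-rich cKO cells Timp1-richer. The richest thinned cKO stromal cell held 61 Timp1 UMIs, and the means were not taken without it, so the order in cKO may rest on few cells.

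**Figure D2:**
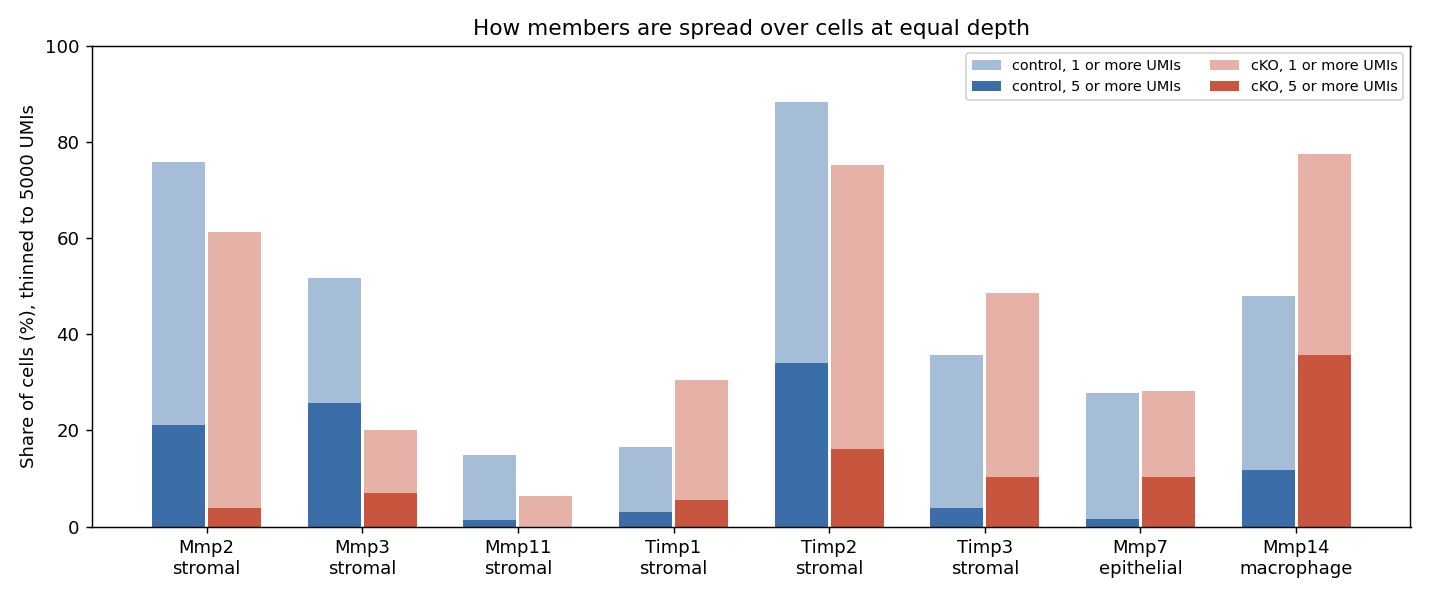
Share of cells (%) with 1 or more UMIs (light) and 5 or more UMIs (dark) of a gene after thinning each cell to 5000 UMIs, in control (blue) and cKO (red). Stromal Mmp3 went from 51.8% to 20.2% of cells with a UMI, macrophage Mmp14 from 48.0% to 77.6%, and epithelial Mmp7 kept a like share with a UMI (27.9% and 28.1%) while its share with 5 or more was 1.55% and 10.4%.

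Hsd11b2 marked a larger share of stromal cells in cKO. Hsd11b2, which encodes an enzyme that inactivates glucocorticoids, had a UMI in 75 of 681 control and 671 of 1599 cKO stromal cells, whose median depths were 12572 and 16227 UMIs. The share was not read at equal depth, and the parts of a different mix of cells, another level of the gene and the difference in depth were not tested. Among cells with it, Mmp3 was 463 CPM in control against 66.4 in cKO. Among cells without it, Mmp3 was 953 and 369 CPM, so Mmp3 was lower in cKO on both sides of the split, as was Mmp2 (325 and 221 CPM with, 533 and 287 CPM without).

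Mmp11 and Timp1 did not keep 1 direction. Mmp11 was 6.82 CPM in control (9 UMIs) and 21.0 CPM in cKO among Hsd11b2 cells, and 56.4 and 17.3 CPM among the others. Timp1 was 136 and 100.0 CPM among Hsd11b2 cells, and 125 and 302 CPM among the others. The higher stromal Timp1 was therefore found in cells without Hsd11b2, whereas Timp3 was higher in cKO in both (230 and 394 CPM with, 167 and 245 CPM without). The difference between the ratios on both sides of the split was not tested, as there is 1 library per group.

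Other stromal markers gave the same direction for Mmp3. With a UMI of Myoc (149 control and 38 cKO cells) Mmp3 was 1277 CPM in control against 330 in cKO. With Cxcl5, a chemokine gene (74 and 264 cells), it was 1025 and 304 CPM. With Cilp, a cartilage matrix gene (160 and 499 cells), it was 730 and 286 CPM. With Cyp26b1, which encodes an enzyme that breaks down retinoic acid (36 and 165 cells), it was 878 and 74.5 CPM. Timp1 took no common direction in these cells, at 52.7 CPM in control against 561 in cKO Myoc cells but 214 and 73.1 CPM in Cyp26b1 cells.

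**Figure D3:**
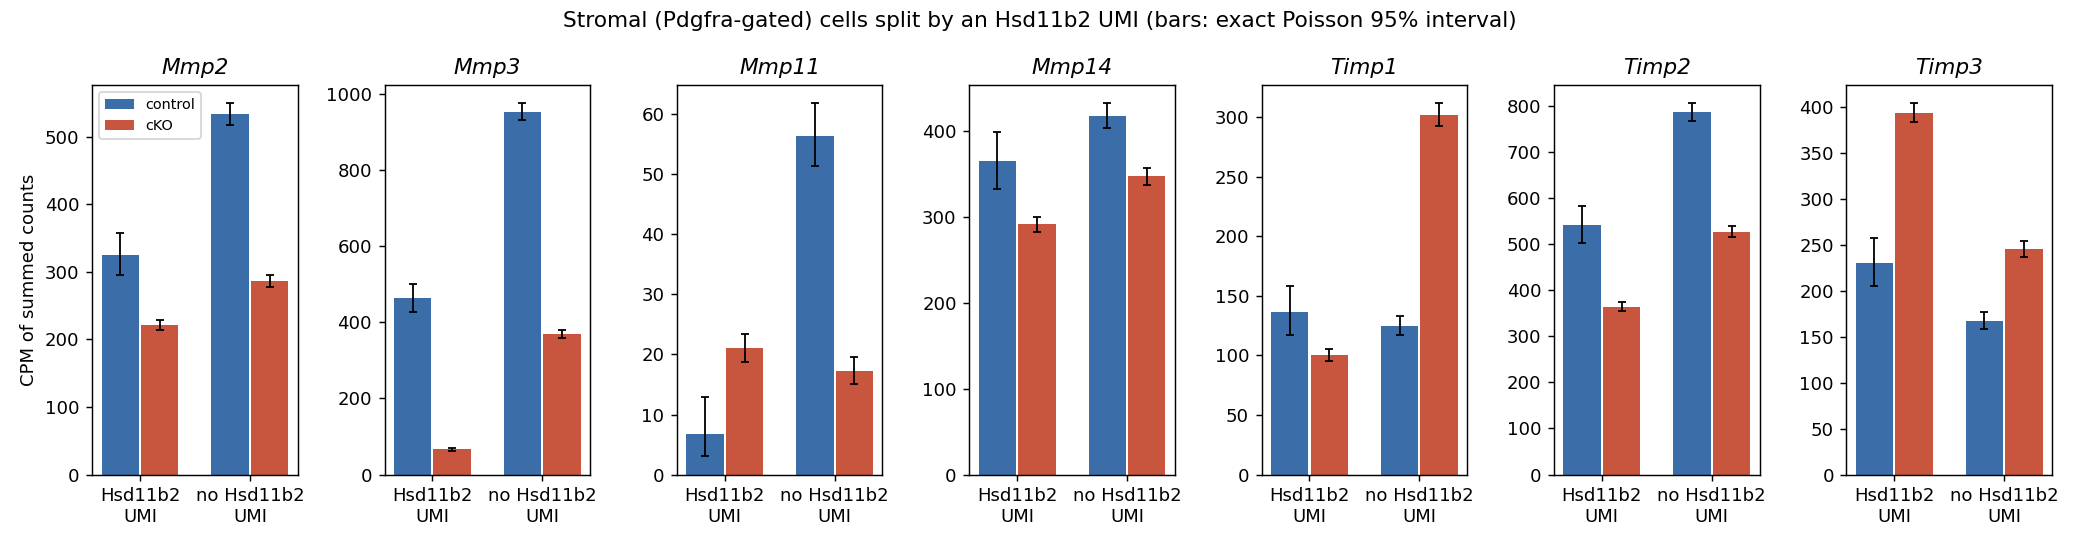
CPM of 7 genes in stromal cells with and without an Hsd11b2 UMI, in control (blue, 75 and 606 cells) and cKO (red, 671 and 928 cells), with exact Poisson 95% intervals and a separate axis from 0 for each gene. Mmp2, Mmp3, Mmp14 and Timp2 are lower and Timp3 higher in cKO on both sides, while Mmp11 and Timp1 point in opposite directions.

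In the epithelium, at which Ltf-cre is aimed, Mmp7, Mmp2 and the 3 inhibitor genes were higher in cKO and Mmp23 lower. Of those higher, all but Mmp7 lay under their cell-free levels in both libraries. Mmp7 encodes matrilysin, a small secreted enzyme of glandular and luminal epithelia. The cKO epithelial class was small and mixed, with 120 cells against 993 in control and median depths of 12662 and 6438 UMIs. The summed level of the 5 stromal markers other than the gate gene was 144 CPM in control against 865 in cKO epithelial cells, that of the 5 T or NK markers 13.4 and 304 CPM, and that of the 6 epithelial markers 11571 and 8822 CPM. None of these stromal or T or NK markers was at 0 in either library. The same genes are therefore also given for epithelial cells with at least 2 further epithelial markers (965 control and 64 cKO cells), a restriction chosen after the data were seen. In those cells the T or NK sum was 4.39 and 12.3 CPM, and the stromal sum 99.5 and 852 CPM.

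Mmp7 was 102 CPM in control against 265 in cKO epithelial cells, a ratio of 2.60 (2.40 to 2.81). Of its UMIs, 96.7% in control and 98.1% in cKO lay in this class, and no other gated class reached 6 CPM. In cells with further epithelial markers it was 103 and 315 CPM, a ratio of 3.06 (2.83 to 3.30). It was higher in cKO among cells with an Ltf UMI (105 and 288 CPM, 830 and 33 cells) and among those without (29.1 and 224 CPM, 163 and 87 cells). At equal depth the share of cells with an Mmp7 UMI was 27.9% of 581 control and 28.1% of 96 cKO cells, while 5 or more UMIs were found in 9 and 10 of these cells. The log2 ratio, 1.38 with all UMIs, was 0.72 after thinning to 1000 UMIs and 0.85 when any cell with an Epcam UMI was taken, both short of 2-fold. Over all cells of the library the order was the reverse, 51.5 CPM in control against 18.8 in cKO, beside an epithelial share of cells of 27.2% in control and 2.42% in cKO.

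Timp1 was 7.38 CPM in control against 61.4 in cKO epithelial cells, a ratio of 8.31 (6.69 to 10.4). A single cKO cell held 34.5% of its 226 cKO UMIs, the log2 ratio of 3.05 was 1.32 when cells were averaged, and the cKO level was under the 80.1 CPM of cKO cell-free barcodes. Timp2 was 9.83 and 38.3 CPM and Timp3 29.0 and 73.6 CPM, also under their cell-free levels in both libraries. Mmp2 had 30 UMIs in control and 31 in cKO, or 1.63 and 8.42 CPM, again under the cell-free 52.0 and 90.1 CPM. The ratios of all 4 genes were below 1 among epithelial cells without an Ltf UMI, and that of Timp3 also after thinning to 1000 UMIs. With an assumed 5% of cell-free RNA subtracted the log2 ratio of Timp2 went from 1.96 to 3.07, and that of Mmp2 from 2.37 to at least 4.58, since no control UMI was left. The part of the stromal markers of this class in these levels was not tested.

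Mmp23 was 26.3 CPM in control against 10.3 in cKO epithelial cells, 2.55-fold lower (1.83 to 3.65). Its cell-free level was 24.4 and 21.9 CPM, so the control level was near that of cell-free barcodes and the cKO level below it. It was at least 2-fold lower under 11 of 12 alternatives. After thinning to 1000 UMIs 0 of 120 cKO cells held a UMI, which allows up to 2.5% of cells, beside 2.84% of control cells, so a 2-fold difference was not detectable at that depth. Mmp14 was 111 and 92.6 CPM, a ratio of 0.837 (0.744 to 0.939). Its log2 ratio of -0.26 was -0.94 when cells were averaged and -1.35, past 2-fold, after thinning. Of the 7 members counted in the epithelial class 5 were at least 2-fold higher, beside 22.1% of 11182 genes, and 1 at least 2-fold lower, beside 9.33%. That 1, Mmp23, reached 50 UMIs through the control library alone. Of the 5 higher ones, Mmp2, Timp1, Timp2 and Timp3 lay under their cell-free levels and had ratios below 1 in cells without an Ltf UMI, which leaves Mmp7. The members' median log2 ratio was 1.38 and that of all counted genes 0.36.

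In macrophages Mmp14 was higher in cKO. It was 300 CPM (278 to 324) in control and 702 CPM (659 to 747) in cKO, a ratio of 2.34 (2.12 to 2.58). The log2 ratio of 1.22 was 0.89, short of 2-fold, when any cell with a C1qa UMI was taken. After thinning to 1000 UMIs, 20.9% of control and 44.0% of cKO macrophages held an Mmp14 UMI, against 1.08% and 0.408% of T or NK cells. The class held 257 control cells with a median of 8438 UMIs and 136 cKO cells with a median of 8985.5. Mmp14 was higher in cKO both in macrophages with a UMI of Lyve1, a marker of tissue-resident cells (52.7 and 282 CPM, 21 and 13 cells), and in those without (326 and 748 CPM). In control, Mmp14 was higher in stromal cells (410 CPM) than in macrophages, and in cKO the order was reversed, with 317 CPM in stroma.

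Timp2, at 218 CPM in control against 234 in cKO macrophages, had a ratio of 1.07 (0.930 to 1.23). Timp1 was 23.1 and 52.7 CPM, where 1 cell held 41.3% of the cKO UMIs, and Mmp2 was 9.76 and 21.1 CPM from 22 and 30 UMIs. Both lay below the cell-free level, and the sum of stromal markers in this class was 301 CPM in control against 820 in cKO. Without any other gate gene in the cell the Timp1 ratio was below 1. Of the 4 members counted, 3 were at least 2-fold higher (8.65% of 6464 genes) and 0 lower (2.85%). Of these 3, Timp1 and Mmp2 lay under their cell-free level. The members' median log2 ratio was 1.14, beside 0.21 over all counted genes.

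**Figure D4:**
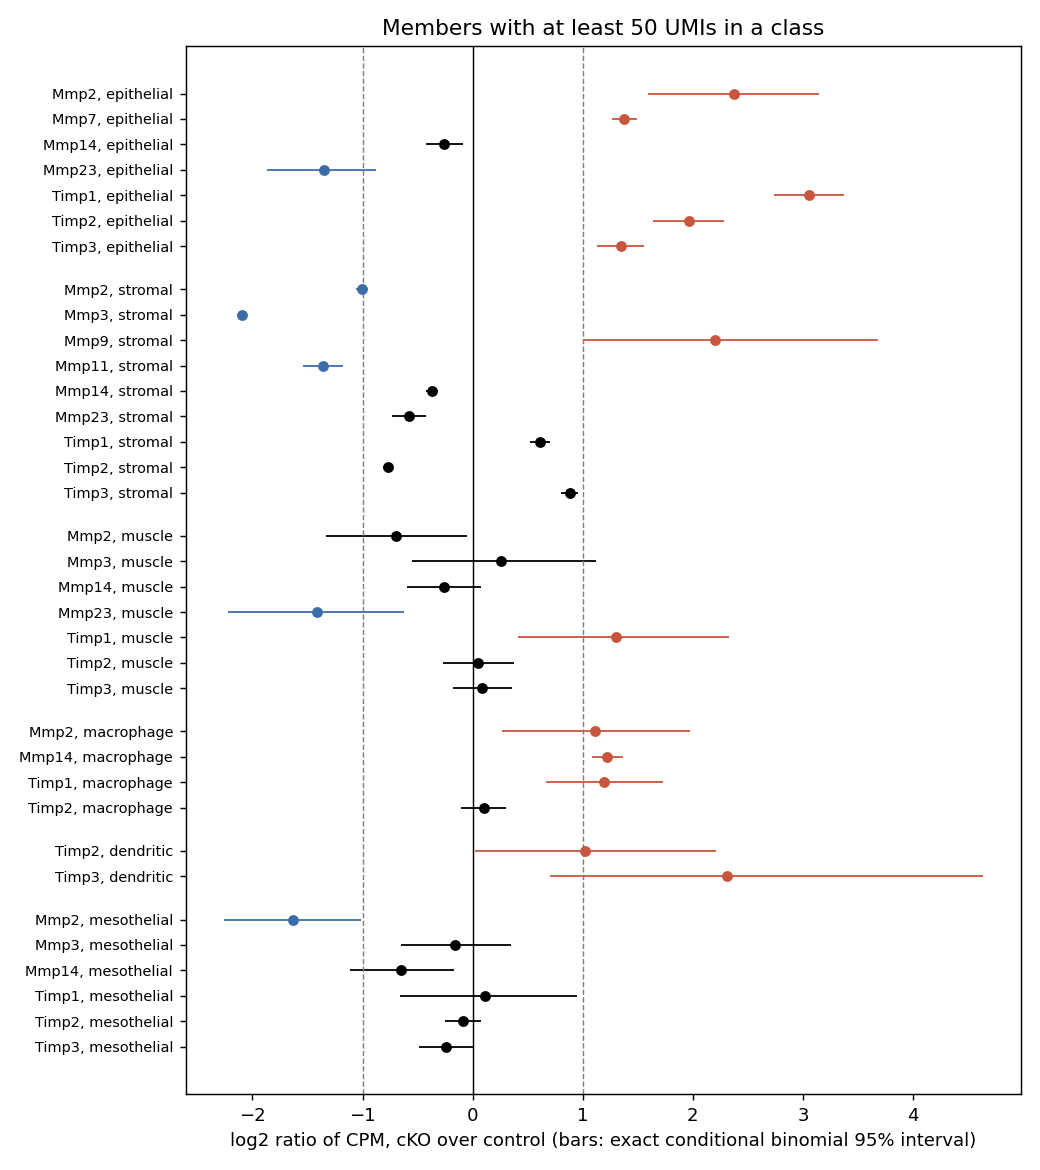
Log2 ratio of CPM, cKO over control, for each gene with at least 50 UMIs in a class, with exact conditional binomial 95% intervals; dashed lines mark 2-fold, red points are at least 2-fold higher in cKO, blue at least 2-fold lower. Stromal Mmp3, Mmp11 and Mmp2 lie to the left and macrophage Mmp14 and epithelial Mmp7 to the right, with much wider intervals in dendritic and muscle cells.

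Smooth muscle cells were shallow, with medians of 1556 UMIs in 304 control and 1619 UMIs in 556 cKO cells, and 5 of the 7 members counted were within 2-fold. Timp3 was 196 and 208 CPM, a ratio of 1.06 (0.885 to 1.28), and Timp2 136 and 141 CPM, a ratio of 1.04 (0.832 to 1.30). The cKO level of Timp2 was under its cell-free level. Mmp14 was 132 and 110 CPM, with a ratio of 0.833 (0.661 to 1.05). Mmp23 was 36.2 and 13.5 CPM, a ratio of 0.374 (0.215 to 0.648) from 31 and 27 UMIs, with the cKO level under its cell-free 21.9 CPM. Timp1 was 14.0 and 34.6 CPM from 12 and 69 UMIs with 44.9% of cKO UMIs in 1 cell, below its cell-free level. Mmp3 had 80.0% of its 50 cKO UMIs in 1 cell, and Mmp2 78.4% of its 37 control UMIs. Of 7 counted members 1 was at least 2-fold higher (5.54% of 6824 genes) and 1 at least 2-fold lower (2.32%), with a median log2 ratio of 0.05 beside 0.08. The higher one, Timp1, reached 50 UMIs only through the cKO library. Markers of other cell types differed between the libraries in this class: the epithelial sum was 360 CPM in control against 17.5 in cKO, the T or NK sum 103 and 235 CPM and the stromal sum 1673 and 2256 CPM. Their part in these ratios was not tested.

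Mesothelial cells, 38 in control and 65 in cKO, carried Timp2 and Timp3 as their main transcripts of the set. Timp2 was 767 CPM in control against 721 in cKO, a ratio of 0.940 (0.842 to 1.05), and Timp3 343 and 289 CPM, a ratio of 0.844 (0.713 to 1.00). In control the Timp2 intervals of mesothelial and stromal cells overlapped, whereas in cKO mesothelial Timp2 lay above the stromal 440 CPM. Mmp2 was 84.8 and 27.3 CPM, 3.11-fold lower (2.02 to 4.79) from 49 and 43 UMIs. The stromal marker sum in this class was 10766 and 11795 CPM, close to that of stromal cells. The cKO level was under the cell-free 90.1 CPM, and the log2 ratio of -1.64 was -0.96 without the 2% deepest cells. Mmp14 had a ratio of 0.639 (0.463 to 0.888). Mmp3 had a ratio of 0.895 (0.639 to 1.27), but 1 cell held 46.0% of its control and 63.1% of its cKO UMIs. Its log2 ratio ran from -0.92 without the top cell of each library to 2.01 with cells averaged. Its levels, 86.6 and 77.5 CPM, were close to the 83.8 and 80.1 CPM of cell-free barcodes. Timp1 had a ratio of 1.08 (0.632 to 1.93), or 0.11 on the log2 scale, which was 1.98 when cells with a second gate gene were dropped. Of 6 counted members 0 were at least 2-fold higher (5.27% of 5941 genes) and 1 at least 2-fold lower (1.45%), with a median log2 ratio of -0.21 beside 0.15.

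Dendritic cells, 46 in control and 155 in cKO, had little of any member. Timp2 was 15.7 and 31.9 CPM from 9 and 76 UMIs, and Timp3 5.23 and 26.0 CPM, where 7 cKO cells held all 62 UMIs and 1 of them 45.2%. These were the 2 members counted, and both were at least 2-fold higher, beside 12.7% of 5937 genes, with 0 lower beside 4.08%. Both reached 50 UMIs through the cKO library. Timp1, under 50 UMIs, went the other way, at 31.4 CPM in control against 5.45 in cKO, 5.75-fold lower (2.66 to 12.8) from 18 and 13 UMIs. With at least 2 Flt3 UMIs required the log2 ratio of Timp2 was -0.20, and without the deepest cells neither Timp2 nor Timp3 was past 2-fold. Thinned cells held too few UMIs of either for a ratio. The levels of Timp2 and Timp3 lay under those of cell-free barcodes, and the T or NK marker sum was 27.9 CPM in control against 445 in cKO dendritic cells, the endothelial sum 6.97 and 301 CPM. The members' median log2 ratio was 1.53, beside 0.24 over all counted genes.

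Members were also compared with the genes whose levels over the 12 class sums (6 classes in 2 libraries) were most like theirs, by the Pearson correlation of log2(CPM + 1) among 11634 genes. These sums share libraries, animals and cell-free RNA, so the values are a description. Mmp2 was most like Htra1 (r = 0.984), which encodes a secreted serine protease, and Mmp3 most like Efs (0.965). Mmp7 was most like Unc5cl (0.970) and Lamb3 (0.963), the latter a laminin chain of epithelial basement membranes. Mmp11 was most like Ccn3 (0.960), Timp2 like Rnase4 (0.987) and Timp3 like Lrig3 (0.986), whereas Timp1 had no gene above 0.862 (Ank2). For Mmp14 the most like was 5031439G07Rik (0.955) and for Mmp23 Fam162a (0.940). Among the members themselves Mmp2 and Mmp3 were the most alike (0.958), and Mmp3 and Timp2 came to 0.900.

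The wider proteinase system was read from a list of 36 other metalloproteinases and regulators, including ADAM and ADAMTS proteinases, plasminogen activators, their serpin inhibitors and thrombospondins. In stromal cells 30 were counted, of which 4 were at least 2-fold higher and 3 lower. Serpine2, an inhibitor of serine proteases, was 171 CPM in control against 437 in cKO, and the aggrecan-cutting Adamts4 was 111 and 231 CPM. The related Adamts5 was at 48.4 CPM in control with a ratio of 0.414, and so pointed the other way, as did Adam19 (78.9 and 37.0 CPM) and the sparse Adamts15 (3.39 and 1.30 CPM). Mmp12 and Mmp13 had ratios of 2.78 (1.52 to 5.55) and 3.15 (1.69 to 6.50) at levels under 4 CPM.

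In epithelial cells 20 of the list were counted, 8 at least 2-fold higher and 1 lower. Thbs1, which encodes a matrix glycoprotein, was 67.5 CPM in control against 441 in cKO, beside 3434 and 3008 CPM in stromal cells, and Adamts1 was 18.3 and 78.2 CPM. Serpine2 (ratio 8.51), Lrp1 (5.00), Mmp25 (3.83), Adam19 (3.24), Thbs2 (2.97) and Adam15 (2.07) were also higher, and Adamts9 was lower (81.4 and 39.6 CPM). In macrophages 4 of 20 were higher and 1 lower. Mmp19, a secreted proteinase, was 874 CPM in control against 213 in cKO macrophages, a ratio of 0.243 (0.215 to 0.275), opposite in direction to Mmp14 in the same cells. Thbs2 (25.3 and 160 CPM), Plat, the tissue plasminogen activator (25.7 and 133 CPM), Adam19 (24.8 and 54.1 CPM) and Adamts4 (4.44 and 42.8 CPM) were higher. The stromal marker sum of this class was 301 CPM in control against 820 in cKO, and its part in these levels was not tested.

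The remaining classes had few such genes. Muscle had 1 higher (Adamts4, ratio 2.70) and 1 lower (Mmp17, 0.370) of 23 counted. Dendritic cells had 1 higher (Plaur, 10.1, from 3 control UMIs) and 0 lower of 14. Mesothelial cells had 1 higher (Adamts1, 2.39) and 1 lower (Mmp25, 0.440) of 16. The share of all genes past 2-fold in each class, given above for the members, is the background for these counts too.

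Since both libraries went through 5 hours of enzymatic digestion, 11 genes of the dissociation response were read beside the members. In stromal cells 0 of 11 were 2-fold apart in either direction, and their summed level was 3919 CPM in control against 4505 in cKO. Hspa1a, with a ratio of 1.99 (1.88 to 2.11), sat at the 2-fold line. The ratios of the genes for AP-1 subunits in stromal cells were 1.11 for Fos, 1.53 for Fosb, 1.46 for Jun and 1.07 for Junb. In epithelial cells the ratios were 0.808 for Fos, 1.10 for Fosb, 0.532 for Jun and 0.351 for Junb, and the list had 1 gene at least 2-fold higher (Hspa1a, 2.30) and 2 at least 2-fold lower (Junb and Atf3, 0.388). Any relation of these genes to Mmp3 or Mmp7 was not tested. The list's sum was 6266 and 5376 CPM in epithelial, 7725 and 5880 CPM in muscle and 4674 and 7978 CPM in macrophage cells. It was 3310 and 4686 CPM in dendritic and 12861 and 11978 CPM in mesothelial cells. At least 2-fold higher and lower were 2 and 3 genes in muscle and 3 and 1 in macrophages. They were 3 and 1 in dendritic and 0 and 0 in mesothelial cells. The share of all genes given above for each class is the background. Dendritic Hspa1b (68.0 and 790 CPM), Hspa1a (50.6 and 335 CPM) and Fosb (43.6 and 100 CPM) were higher and Fos (227 and 102 CPM) lower. In macrophages the higher sum in cKO came mostly from the heat shock genes Hspa1a (330 and 1268 CPM) and Hspa1b (727 and 2350 CPM). Ier2 (ratio 2.11), Nr4a1 (1.90), Junb (1.47), Fos (1.33), Fosb (1.32) and Dusp1 (1.25) were also higher. Atf3 (ratio 0.427), Egr1 (0.716) and Jun (0.771) were lower. The part of the list in the macrophage Mmp14 difference was not tested.

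Several members overlap another gene in GRCm38. Timp1 (chrX:20870166-20874735) lies inside Syn1 and Timp3 (chr10:86300372-86349506) inside Syn3, both on the opposite strand. Mmp11 (chr10:75923222-75936496) overlaps Chchd10 on the opposite strand, whose UMIs numbered 1646 in the control cells and 1279 in those of cKO. Timp2 (chr11:118301069-118355740) overlaps Cep295nl on its own strand, whose UMIs numbered 41 and 80. Syn1 and Syn3 held 9 and 102 UMIs in control and 19 and 310 in cKO. The strand setting of the counting was not given in the sources used here, so reads of Mmp11 and Chchd10 cannot be told apart with certainty. Mmp7 (chr9:7692090-7699585) overlaps the antisense gene AV064505, whose UMIs numbered 3 and 4. The other genes lie at chr8:92827291-92853420 (Mmp2), chr9:7445822-7455975 (Mmp3), chr2:164940780-164955850 (Mmp9), chr14:54431612-54445364 (Mmp14) and chr4:155650655-155653384 (Mmp23).

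**Figure D5:**
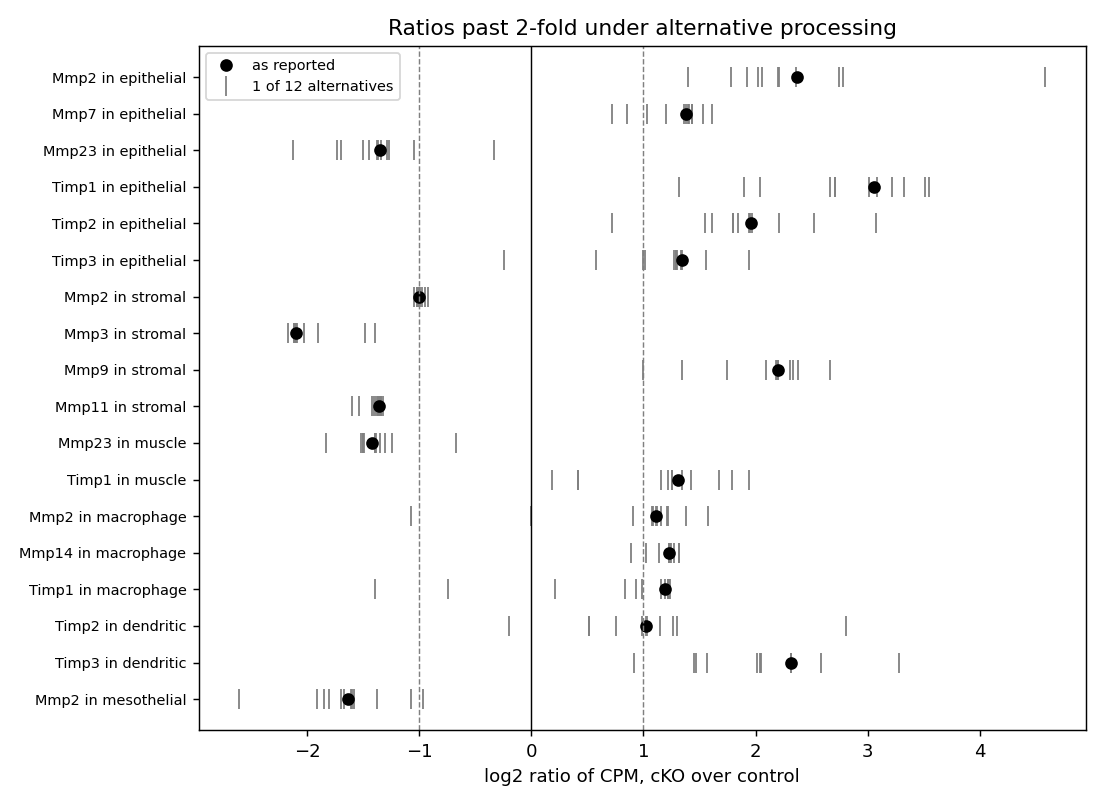
Log2 ratio, cKO over control, for the 18 pairs of gene and class that were at least 2-fold apart, as reported (black) and under each of 12 alternatives that gave a value (grey ticks, with a library at 0 set to 3 UMIs); dashed lines mark 2-fold. Stromal Mmp3 and Mmp11 and epithelial Timp1 stay past the line under all 12, macrophage Mmp14 under 11 and epithelial Mmp7 under 10, while Mmp2 and Timp1 in macrophages, Timp2 in dendritic cells and Timp3 in epithelial cells cross 0. The splits by Hsd11b2 and Ltf are not drawn. In these, stromal Mmp11 changed sign with an Hsd11b2 UMI and epithelial Timp1 without an Ltf UMI.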

How the data were processed

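The deposited matrices hold raw UMI counts per gene and barcode, not normalised; the file headers name Cell Ranger 4 as their writer, whereas the submitters' processing notes name Cell Ranger 6.1.1 and mm10. The difference could not be settled. Annotation and strand setting were not given in the sources used here. Counts were summed per class and library after the cell and gate rules given in the report (ties between gate genes, 19 control and 30 cKO cells, left out) and divided by the class total (CPM). A UMI stands for 1 transcript, so no length scaling was used. Intervals are exact Poisson (CPM), conditional binomial (ratios) and Clopper-Pearson (shares), at 95%, and cover counting error only; a count of 0 allows up to 3. Cell-free barcodes had at most 100 UMIs. No doublet caller was run; alternatives drop the 2% deepest cells or cells with a second gate gene. With 1 library per group no p-value was computed. Named were all 10 members, and genes of the 36-gene list with at least 50 UMIs, a ratio of at least 2 or at most 0.5 and an interval without 1, plus the most alike genes. Ungated cells were typed by 3 or more UMIs of a marker list. The members, lists, sub-gates and gates were chosen with earlier results of these data known. Tests on simulated counts preceded the analysis (Python 3.11.15, numpy 2.4.6, scipy 1.17.1, pandas 2.3.3, matplotlib 3.10.9).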

Additional observations from a re-analysis of the deposited data

Results flagged for a closer look

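Mmp2 pointed in opposite directions in different classes. Its ratio of cKO to control CPM was 5.17 in epithelial and 2.16 in macrophage cells, and 0.499 in stromal and 0.322 in mesothelial cells. The difference between classes was not tested, as each class comes from 1 library per group. The epithelial and macrophage levels lay below those of cell-free barcodes, and the macrophage ratio was at or below 1 with an inclusive gate and after thinning. The mesothelial cKO level, 27.3 CPM, also lay below the cell-free 90.1 CPM, and its log2 ratio of -1.64 was -0.96 without the 2% deepest cells.

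Some members were present in cells that no gate covers. In 5 control cells with neutrophil markers Mmp9 stood at 758 CPM, from 11 UMIs of which 72.7% were in 1 cell, and 3 such cKO cells held 0 Mmp9 UMIs, which allows up to 115 CPM. In ungated cells with endothelial markers (26 control and 63 cKO cells) Timp3 was 1012 CPM in control and 833 CPM in cKO, both above every gated class. In those with pericyte markers Timp3 was 2127 CPM in 7 control cells and 675 CPM in 11 cKO cells, where 83.0% and 86.1% of the UMIs were in 1 cell.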

How the results depend on the processing

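In all, 12 alternatives were applied to the 35 pairs of gene and class counted, of which 18 were at least 2-fold apart; 9 of these kept their sign wherever a value could be had, also in the cells split by Hsd11b2 or Ltf, and 1 (stromal Mmp3) stayed past 2-fold in its direction throughout. A library at 0 was set to 3 UMIs, which makes the ratio a bound, such as -0.33 for epithelial Mmp23 after thinning. Thinning gave no value for epithelial Mmp2, dendritic Timp2 and Timp3 and mesothelial Timp1. Stromal Mmp3 ranged from -2.18 to -1.40 and macrophage Mmp14 from 0.89 to 1.32 on the log2 scale. The log2 ratio changed sign in epithelial cells without an Ltf UMI for Mmp2 (-0.79), Timp1 (-0.52), Timp2 (-0.70) and Timp3 (-0.15), and after thinning for epithelial Timp3 (-0.25). It did so in stromal cells with an Hsd11b2 UMI for Mmp9 (-0.40) and Mmp11 (1.62). In macrophages Mmp2 turned with the inclusive gate (-0.0035) and thinning (-1.08), and Timp1 with the exclusive gate (-0.75) and thinning (-1.40). In dendritic cells Timp2 turned with at least 2 gate UMIs (-0.20). The count of members at least 2-fold apart stayed within 1.5 times of 4 in stromal cells, and of 6 in epithelial cells except after thinning (2). In muscle it went from 2 to 4 with the exclusive gate and without the top cell, 1 with further markers and 0 with at least 200 UMIs per gene. In macrophages it went from 3 to 0 with the inclusive gate, and to 1 with median-of-ratios scaling and with 200 UMIs. In dendritic cells it went from 2 to 1 with at least 2 gate UMIs, averaging, further markers and median of ratios, and to 0 without the deepest cells, with 200 UMIs and with thinning. In mesothelial cells it went from 1 to 2 with the exclusive gate and averaging, and to 0 with 200 UMIs. Cell filters of 1000 genes or 10% mitochondrial UMIs moved none of these counts beyond 1.5 times. Causes were not tested. The splits by Hsd11b2 and Ltf and the further markers were chosen after seeing the data. No paired analysis was possible because each group is 1 library.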

Other observations

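Mmp19 and Mmp13 were distributed differently from the 10 genes of the report. Mmp19 was 900 CPM in control and 1504 CPM in cKO stromal cells, while in macrophages it was 874 and 213 CPM, so that it was at a similar level in both classes of the control library and mainly stromal in cKO. Mmp13, a collagenase, was 811 CPM in control and 571 CPM in cKO macrophages and under 4 CPM in stromal cells. In ungated cells it was 24.5 CPM in control and 80.8 CPM in cKO. Mmp12, the macrophage elastase, was 146 and 140 CPM in macrophages, a ratio of 0.958 (0.799 to 1.15).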
